A study of Mus musculus with 6 samples.

Results

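Kinesin motor genes are described here in germinal vesicle (GV) oocytes, fully grown eggs arrested in meiosis before their nuclear envelope breaks down. The genes were taken by name, as all rows named Kif or Kifc with a number and, where present, a family letter, whatever their level. This gave 41 of the 49315 genes in the deposited counts. Of these, 33 had enough reads to be tested for a difference, 8 did not, and 2 of those 8 (Kif2b and Kif6) had no read in any library. The mutant libraries came from Rpa1 OcKO mice, animals whose oocytes lack Rpa1, the large subunit of the single-strand DNA binding complex RPA, through a conditional knockout specific to oocytes. The other libraries came from Control mice, whose genotype is not described further in the labels. The driver of the deletion is not given in the sources used here. All animals were 4 to 5 weeks old and primed with PMSG (pregnant mare serum gonadotropin), and each library held around 20 oocytes without cumulus cells. There were 3 libraries per genotype, labelled as biological replicates.

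Kinesins are motor proteins that use ATP to walk along microtubules or to take them apart at their ends. Some build the meiotic spindle, move chromosomes and lay down the midzone that guides cytokinesis, while others carry vesicles, organelles and RNA. A mouse oocyte grows with an active nucleus, then shuts transcription down before it resumes meiosis, so both meiotic divisions and the first steps of the embryo run on RNA stored by the GV stage. Its meiotic spindle assembles without centrioles, which places much of the work of ordering microtubules on motors.

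Libraries held 36280148 to 44575222 counts, and the 41 kinesin genes took 0.361%, 0.381% and 0.374% of them in OcKO oocytes and 0.389%, 0.359% and 0.356% in Control oocytes. Rpa1 itself was at 7.76, 4.14 and 6.84 CPM (counts scaled to a common library size with TMM factors) in OcKO libraries and at 156, 155 and 140 CPM in Control libraries. Its log2 fold change was -4.59 (SE 0.31, edgeR quasi-likelihood test, Benjamini-Hochberg adjusted p = 0.0064). Its adjusted p was 0.0959 without OcKO replicate 3, 0.0526 without Control replicate 2 and 0.0588 without Control replicate 3. Cell type markers are given in CPM scaled by library size alone. The TMM factors left out were 1.02 to 1.12 in OcKO and 0.917 to 0.963 in Control. With them, OcKO marker values would be lower and Control marker values higher. On library size alone, the 11 oocyte markers summed to 22307 to 27336 CPM in OcKO and 24739 to 37206 CPM in Control libraries. The 11 granulosa and cumulus markers summed to 64.7 to 91.5 CPM in OcKO and 37.4 to 73.0 CPM in Control libraries, with 3 of the 11 under 1 CPM in every library and Ptx3 at 0 in all 6. Among the highest, Inha reached 44.5 CPM in OcKO and 14.7 CPM in Control, Cyp19a1 30.4 CPM in OcKO and 33.7 CPM in Control, and Inhba 16.8 CPM in OcKO and 8.97 CPM in Control. The 6 theca and stroma markers summed to 8.55 to 21.7 CPM in OcKO and 7.03 to 12.2 CPM in Control, and the 4 blood markers to 0.758 to 2.15 CPM in OcKO and 1.70 to 2.51 CPM in Control. The part of these cells in the kinesin values was not tested. In a pool of oocytes, fewer cells and less RNA per cell cannot be told apart, and p-values measure the spread between these pools.

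To compare levels between genes, counts were divided by exon length and expressed as TPM, the share of each gene among length-scaled reads. A kinesin was taken as stored where all 3 Control libraries held at least 1 TPM, which 25 of the 41 did. Summed over the family, the level was 2082, 2086 and 2097 TPM in OcKO libraries and 2176, 1907 and 1960 TPM in Control libraries. The means were 2088 ± 7.7 TPM in OcKO and 2014 ± 143 TPM in Control oocytes (SD, n = 3 each), and the Control libraries lay on both sides of the OcKO ones. With the bar at 5 TPM the number stored was 22, and with it at 0.5 TPM it was 26.

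A store of 6 motors made up most of the family. Kif17, Kif22, Kif23, Kif2c, Kif20a and Kif4 together held 69.1% to 73.4% of all kinesin TPM in each of the 6 libraries. In Control oocytes Kif17 averaged 290 TPM, Kif23 274 TPM, Kif22 255 TPM, Kif4 232 TPM, Kif2c 225 TPM and Kif20a 173 TPM. Among all 49315 genes ordered by Control TPM, Kif17 stood at rank 527 and Kif20a at rank 1018. Within the 6, neighbours in the order overlapped across the 3 Control libraries, so the order of neighbours is not fixed by these data. Genes further apart could differ. Kif17, at 284.4 TPM or more, lay above every Control value of Kif4, Kif2c and Kif20a. Kif20a, at 195.8 TPM or less, lay below every Control value of Kif17, Kif23, Kif22 and, narrowly, Kif4 (196.3 TPM or more). The next gene, Kif20b at 89.5 TPM (rank 2052), did not overlap Kif20a.

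Below it the Control means ran on with overlapping neighbours through Kifc1 at 67.6 TPM, Kif3a at 59.2 TPM and Kif5c at 51.0 TPM down to Kif13b at 7.63 TPM. Kif21b at 5.31 TPM and Kif21a at 2.21 TPM, kinesin-4 motors that restrain microtubule growth, closed the stored set, each clear of the gene above it. The 16 kinesins that were not stored included the neuronal kinesin-1 Kif5a, the Hedgehog pathway motor Kif7 and the ciliary length regulator Kif19a.

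**Figure D1:**
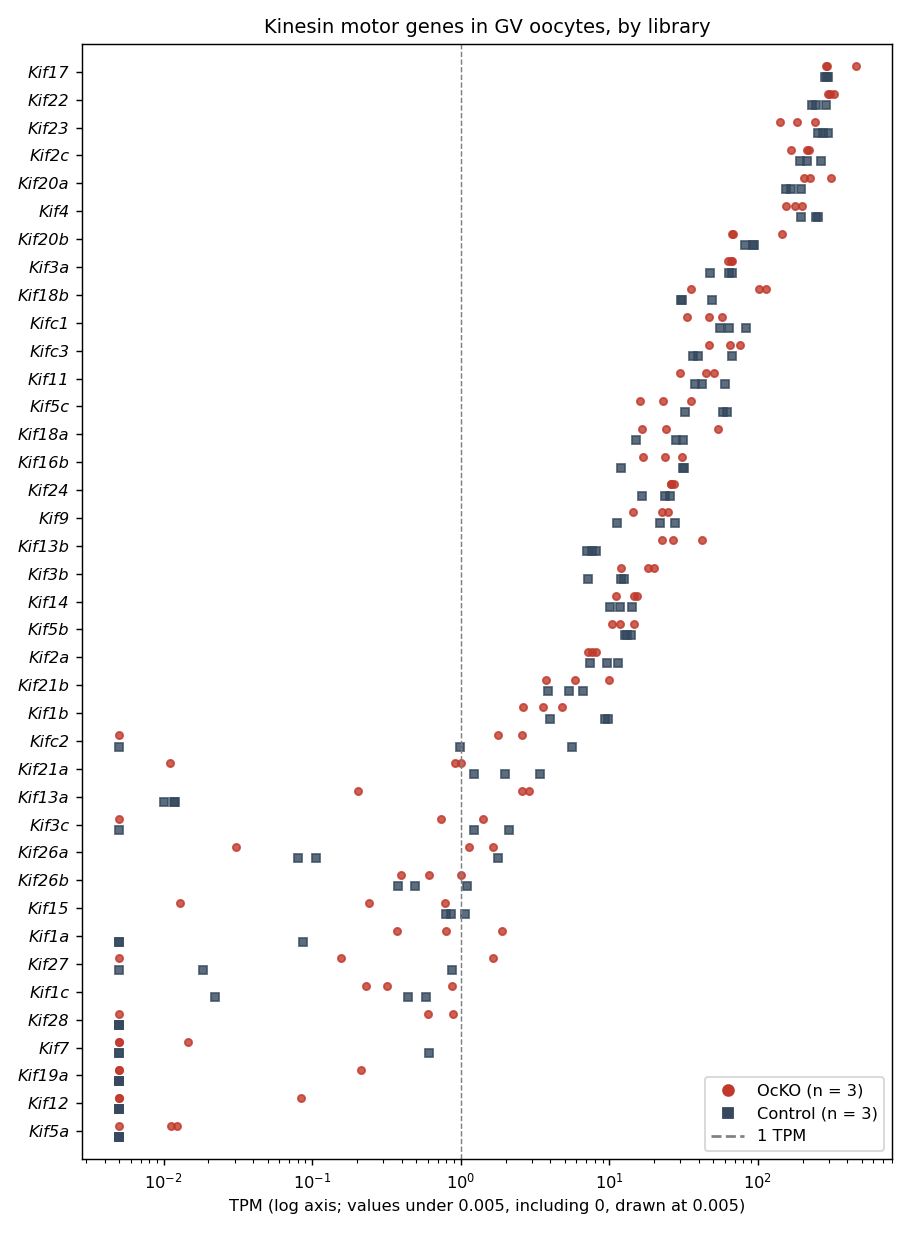
Level of every kinesin with a read, by library, in TPM on a log axis, with 3 OcKO points above 3 Control points for each gene and a dashed line at 1 TPM. The 6 motors from Kif17 to Kif4 stand above the rest in the Control libraries. In OcKO, Kif20b in replicate 2 (145 TPM) lies above Kif23 in replicate 3 (141 TPM). Among stored genes Kif13b has the highest log2 fold change, 1.85.

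Grouped by role, the oocyte's store was weighted towards spindle and cytokinesis motors. The 16 kinesins that separate or focus poles, ride chromosomes, shorten microtubules or work at the midzone included 13 stored genes and gave 66.1% to 73.8% of kinesin TPM. They are called spindle and cytokinesis members here for short, though Kif24 and Kif19a among them are regulators of cilia. Midzone and cytokinesis motors, all 4 of them stored, summed to 543.2 ± 83.9 TPM in OcKO and 548.3 ± 17.7 TPM in Control oocytes (SD, n = 3 each). The 2 chromokinesins, which push chromosome arms away from the poles or shape the midzone, summed to 486.3 ± 7.8 TPM in OcKO and 487.2 ± 57.6 TPM in Control. Depolymerases and length regulators, 5 of 7 stored, summed to 349.3 ± 19.4 TPM in OcKO and 318.2 ± 55.9 TPM in Control. These 3 groups overlapped between genotypes.

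Pole motors summed to 84.3, 92.4 and 88.1 TPM in OcKO libraries and 144.9, 102.7 and 97.8 TPM in Control libraries, and all OcKO sums lay below all Control sums. Most of that difference sat in Kifc1. Kinesin-2 motors, 3 of 4 stored, summed to 427.7 ± 93.1 TPM in OcKO and 361.0 ± 11.8 TPM in Control, most of it Kif17. All OcKO sums of that group lay above all Control sums, by a narrow margin between 373.9 TPM in OcKO and 372.7 TPM in Control. Kinesin-3, with 3 of 6 stored, gave 61.2 ± 17.9 TPM in OcKO and 40.7 ± 14.3 TPM in Control, and kinesin-1, with 2 of 3 stored, gave 37.3 ± 11.8 TPM in OcKO and 64.3 ± 16.6 TPM in Control. The minus-end cargo motors Kifc2 and Kifc3, of which Kifc3 was stored, gave 64.2 ± 14.9 TPM in OcKO and 50.03 ± 15.2 TPM in Control.

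**Figure D2:**
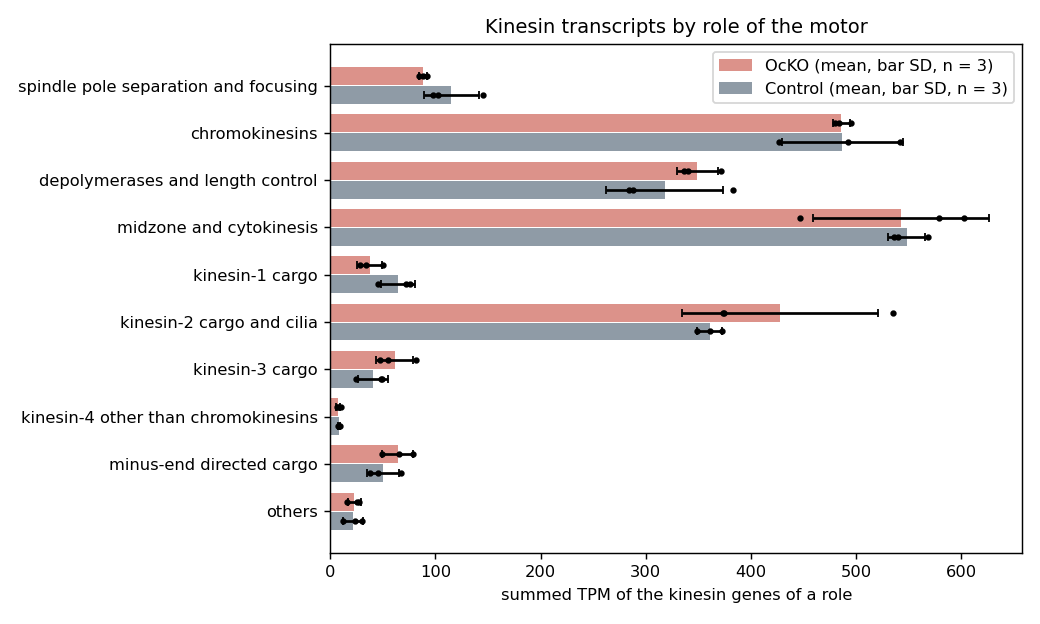
Summed TPM of the kinesins of each role, with bars for the mean, whiskers for the SD and points for the 3 OcKO and 3 Control libraries. Spindle pole motors are lower in OcKO without overlap, at 88.2 ± 4.1 TPM in OcKO and 115.1 ± 25.9 TPM in Control.

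Promoters are shown for Kif23 and Kifc1, a midzone and a pole motor that were lower in every OcKO library on TMM-scaled CPM (Kifc1 not on TPM), and for Kif13a, a cargo motor that was close to absent in Control oocytes. Sequences are from RefSeq (GRCm38.p6) and run 5′ to 3′ on the gene's strand, from 250 bases before to 50 bases after its start. Capitals mark the CHR element (TTTGAA, or TTCAAA on the other strand), the CCAAT box (CCAAT or ATTGG) and the GC box (GGGCGG or CCGCCC), with no overlap between them. CHR elements and CCAAT boxes are known as features of cell-cycle promoters. The Kif23 window is chr9:61946750-61947049 on the minus strand, the Kifc1 window chr17:33890584-33890883 on the minus strand and the Kif13a window chr13:46929669-46929968 on the minus strand.
Kif23: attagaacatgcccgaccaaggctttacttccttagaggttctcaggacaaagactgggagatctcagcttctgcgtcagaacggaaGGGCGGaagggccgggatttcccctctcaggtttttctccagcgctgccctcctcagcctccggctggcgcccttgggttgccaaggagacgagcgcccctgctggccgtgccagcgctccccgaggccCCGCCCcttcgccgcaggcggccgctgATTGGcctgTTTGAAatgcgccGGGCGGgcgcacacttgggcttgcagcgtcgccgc
Kifc1: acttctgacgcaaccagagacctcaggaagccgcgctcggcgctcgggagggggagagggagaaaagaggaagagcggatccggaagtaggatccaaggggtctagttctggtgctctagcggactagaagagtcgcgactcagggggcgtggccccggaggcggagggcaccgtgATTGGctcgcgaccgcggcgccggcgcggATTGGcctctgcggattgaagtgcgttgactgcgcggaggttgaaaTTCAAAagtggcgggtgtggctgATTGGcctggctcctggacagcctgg
Kif13a: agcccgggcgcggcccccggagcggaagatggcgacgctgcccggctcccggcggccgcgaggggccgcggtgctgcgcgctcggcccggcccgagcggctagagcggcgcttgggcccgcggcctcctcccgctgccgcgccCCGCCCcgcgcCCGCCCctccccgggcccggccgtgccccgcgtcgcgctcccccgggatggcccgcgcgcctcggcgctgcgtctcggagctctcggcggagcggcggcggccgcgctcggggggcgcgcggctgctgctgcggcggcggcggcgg

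Kif23 and Kifc1 carry a CHR element close to the start with CCAAT boxes near it, and the Kif13a window holds 2 GC boxes and neither of the other motifs. Across 32 of the 41 members that had a RefSeq window, 36 windows in all, the CHR was found in 36.1% of windows, against 17.9% of all 32851 mouse windows. CCAAT boxes were found in 44.4% of kinesin windows and 37.4% of all, and GC boxes in 63.9% of kinesin windows and 35.7% of all. By role, the CHR stood in 10 of 14 spindle and cytokinesis members (Kif11, Kif14, Kif15, Kif18b, Kif20b, Kif22, Kif23, Kif2c, Kif4 and Kifc1) and in 3 of 18 others (Kif1a, Kif26b and Kif27). The CHR and a CCAAT box stood together in 7 of 14 spindle members and 2 of 18 others. These are matches of letters in a fixed window and no test of binding.

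Between genotypes, 0 of the 33 tested kinesins passed an adjusted p of 0.05 in edgeR, where 0.143% of the 16060 tested genes did (22 higher and 1 lower in OcKO). At an unadjusted p under 0.05 there were 9 kinesins, which is 27.3% of those tested, against 11.1% of all genes. They were 4 higher in OcKO (Kif13b, Kif13a, Kif1a and Kif18b, where 5.93% of all genes were) and 5 lower (Kif5c, Kif4, Kif23, Kif1b and Kifc1, where 5.21% were). With scaling by library size alone the split was 5 higher and 3 lower, where 8.42% of all genes were higher and 2.8% lower. With TMM the total was 3 of 34 tested without OcKO replicate 1, 4 of 35 without Control replicate 2 and 5 of 35 without Control replicate 3. The shares over all genes in these smaller fits are not given here, so the fall is not read as particular to kinesins. DESeq2 called 3 kinesins, Kif13b and Kif13a higher and Kif5c lower. It called 4.7% of 15927 genes, 2.99% higher and 1.71% lower. With limma voom 0 kinesins were called, where 0.00623% of all genes were, and 7 had an unadjusted p under 0.05, where 13.7% of all genes did. The 3 OcKO and 3 Control libraries did not overlap on the TMM-scaled CPM for 8 of 33 kinesins, or 24.2%, against 19.4% of all tested genes. These were 3 higher in OcKO, where 10.7% of all genes were, and 5 lower, where 8.67% were. On TPM they were 6 higher and 3 lower, where 13.8% of all tested genes were higher and 5.63% lower. On CPM scaled by library size alone they were 7 higher and 4 lower, where 14.5% of all were higher and 5.26% lower. The median log2 fold change was -0.069 over tested kinesins, with 16 positive and 17 negative, and 0.012 over all tested genes. Kif13a, with 1 count in each Control library, could enter the test only through its OcKO libraries, where it was high. Kif1a, with 10, 0 and 0 Control counts, needed its OcKO libraries too. Of the 32 tested kinesins other than Kif13a, 3 (9.38%) were higher and 5 (15.6%) lower at an unadjusted edgeR p under 0.05. On TMM-scaled CPM, 2 of these 32 were higher and 5 lower without overlap, and DESeq2 called 1 higher and 1 lower. Kif1a is still counted among the 3 higher by p and among the 2 higher without overlap. Kif21a and Kif15, counted among the 5 lower without overlap, could enter the test only with Control libraries, where they were higher.

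The kinesins furthest above Control were cargo motors of the kinesin-3 family, processive plus-end motors that move vesicles and endosomes. Kif13b, which carries signalling and membrane cargoes, was at 75.3, 41.9 and 47.4 CPM in OcKO libraries and 15.6, 15.0 and 15.1 CPM in Control libraries. Every OcKO library was thus above every Control library, and the Control values were tight. Kif13b (ENSMUSG00000060012, GRCm38 chr14:64652531-64806296, plus strand) averaged 54.9 ± 17.9 CPM in OcKO and 15.2 ± 0.294 CPM in Control (SD, n = 3 each). Its log2 fold change was 1.85 (95% interval 1.12 to 2.57), a 3.60-fold ratio of means, and the adjusted p was 0.114 in edgeR. DESeq2 gave an adjusted p of 5.51e-06, and edgeR 0.0378 when genes under 5 CPM were left out.

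Kif13a, the close relative of Kif13b that moves recycling endosomes, had 249, 297 and 18 counts in OcKO libraries and 1, 1 and 1 in Control libraries. All 3 OcKO libraries were higher, the third by far the least. The summed counts, scaled to library size, stood in a ratio of 177 (95% counting interval 60.2 to 860, counting error only). Kif13a (ENSMUSG00000021375, chr13:46749087-46929718, minus strand) stood 7.10 higher on the log2 scale of the fit (SE 1.40), with an adjusted p of 0.120 in edgeR and 9.90e-05 in DESeq2. These reads came to 5.69, 6.53 and 0.443 CPM in OcKO. The number of genes with any read was 19915, 22393 and 21251 in OcKO libraries and 18435, 18330 and 19351 in Control libraries, and its part in such low genes was not tested.

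Kif1a, the synaptic vesicle precursor motor of neurons, had 247, 52 and 95 counts in OcKO and 10, 0 and 0 in Control libraries. Its edgeR log2 fold change was 5.00 (SE 1.88, adjusted p = 0.369), and all 10 Control counts came from 1 library. Without Control replicate 1 it was 9.95, a value that then rests on Control libraries with 0 counts. Kif1b, which carries mitochondria and vesicles, stood the other way at 20.2, 28.1 and 14.6 CPM in OcKO and 58.7, 62.2 and 24.5 CPM in Control. Its groups overlapped in the third Control library (log2 fold change -1.21, SE 0.43, edgeR adjusted p = 0.344). Among the last members of the family, the early endosome motor Kif16b was at 89.2, 71.2 and 48.3 CPM in OcKO and 96.1, 109 and 38.2 CPM in Control, and Kif1c stayed at or under 2.06 CPM in OcKO and 1.498 CPM in Control. Of the 6 kinesin-3 genes, 3 were higher in OcKO without overlap, where 10.7% of all tested genes were, and 2 of those 3, Kif13a and Kif1a, had 10 counts at most in any Control library. The estimates were positive for 4 of the 6 and negative for 2.

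Among spindle motors the estimates furthest from 0 on the low side among genes above 5 CPM were those of Kifc1, Kif23 and Kif4. Kif23, the motor subunit of centralspindlin that bundles midzone microtubules, was at 467, 629 and 354 CPM in OcKO libraries and 741, 757 and 819 CPM in Control libraries. The highest OcKO library stayed below the lowest Control library. Kif23 (ENSMUSG00000032254, chr9:61915905-61946774, minus strand) had a log2 fold change of -0.68 (95% interval -1.21 to -0.15, edgeR adjusted p = 0.304).

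Kif4, the chromokinesin that works with PRC1 to set the midzone length, was at 317, 363 and 270 CPM in OcKO and 477, 411 and 476 CPM in Control libraries. Its log2 fold change was -0.52 (95% interval -0.93 to -0.11, edgeR adjusted p = 0.304), and on the TPM scale its groups overlapped. Kif4 (chrX:100625737-100727214, plus strand) shares 832 exon bases on opposite strands with Pdzd11, which was at 94.5, 90.7 and 109 CPM in OcKO and 92.0, 135 and 140 CPM in Control. The library kit does not mark strand, so reads in the shared bases cannot be told apart.

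Kifc1, the minus-end motor that focuses spindle poles, was at 36.4, 52.7 and 62.5 CPM in OcKO libraries and 96.9, 82.8 and 66.2 CPM in Control libraries. The groups were close to touching, and they overlapped on the TPM scale and on CPM scaled by library size alone. Its log2 fold change was -0.70 (95% interval -1.34 to -0.06, edgeR adjusted p = 0.402). Kifc1 (chr17:33875666-33890661, minus strand) is 96.8% identical over 2312 bases to Kifc5b, so the 2 values are uncertain where reads could fall to either. Kifc5b was at 13.7, 1.80 and 7.73 CPM in OcKO and 13.5, 1.87 and 4.00 CPM in Control libraries. The other pole motors were Kif11, which slides spindle poles apart, at 79.1, 71.4 and 45.9 CPM in OcKO and 98.7, 69.3 and 70.8 CPM in Control, and its helper Kif15, under 5 CPM in every library and not stored.

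Kif18b, a length regulator of astral microtubules, was outside the rule for named genes and is given because its unadjusted p was under 0.05. It was at 130, 41.6 and 115 CPM in OcKO and 59.3, 41.6 and 38.5 CPM in Control libraries, so the second OcKO library sat among the Controls (log2 fold change 1.04, SE 0.43, edgeR adjusted p = 0.425). Its relative Kif18a, which damps chromosome movement, was at 76.2, 175 and 51.8 CPM in OcKO and 105, 56.5 and 96.6 CPM in Control. Over the 14 tested spindle and cytokinesis members, Kif24 included, the log2 fold change had a median of -0.18, with 6 positive and 8 negative.

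In the kinesin-1 family, the conventional cargo motors, Kif5c was at 53.0, 84.4 and 36.4 CPM in OcKO libraries and 141, 169 and 81.8 CPM in Control libraries. The groups overlapped between the highest OcKO and the lowest Control library. Kif5c (chr2:49619298-49774778, plus strand) averaged 57.9 ± 24.4 CPM in OcKO and 131 ± 44.6 CPM in Control (SD, n = 3 each). Its log2 fold change was -1.17 (95% interval -2.07 to -0.28), with an adjusted p of 0.292 in edgeR and 0.0494 in DESeq2. The ubiquitous Kif5b was at 24.8, 36.1 and 27.7 CPM in OcKO and 35.2, 37.1 and 33.2 CPM in Control, and Kif5a had 1 count in each of 2 OcKO libraries and 0 in Control.

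**Figure D3:**
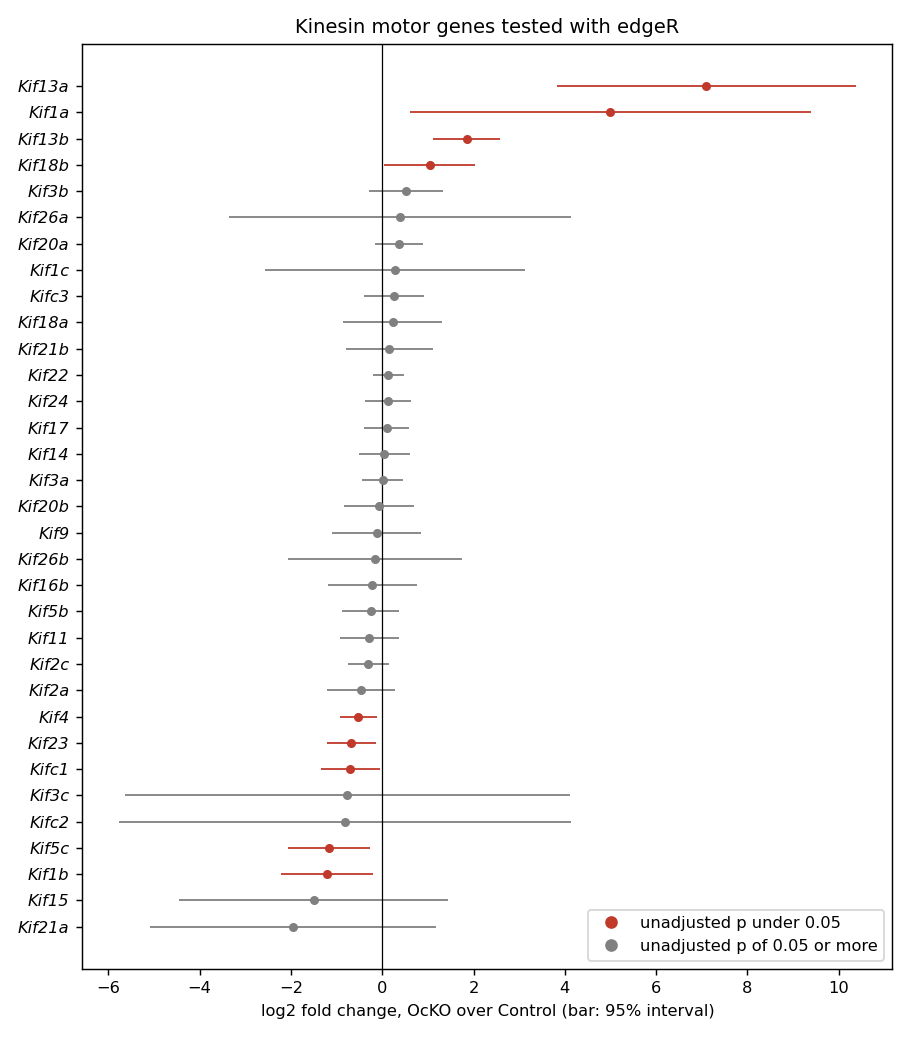
Log2 fold changes of the 33 tested kinesins, OcKO over Control, from edgeR with 95% intervals, ordered by estimate, with red points for an unadjusted p under 0.05. Kif13b, Kif13a and Kif1a lie above 0 with intervals clear of it, as does Kif18b, and Kif5c, Kif4, Kif23, Kif1b and Kifc1 lie below it.

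**Figure D4:**
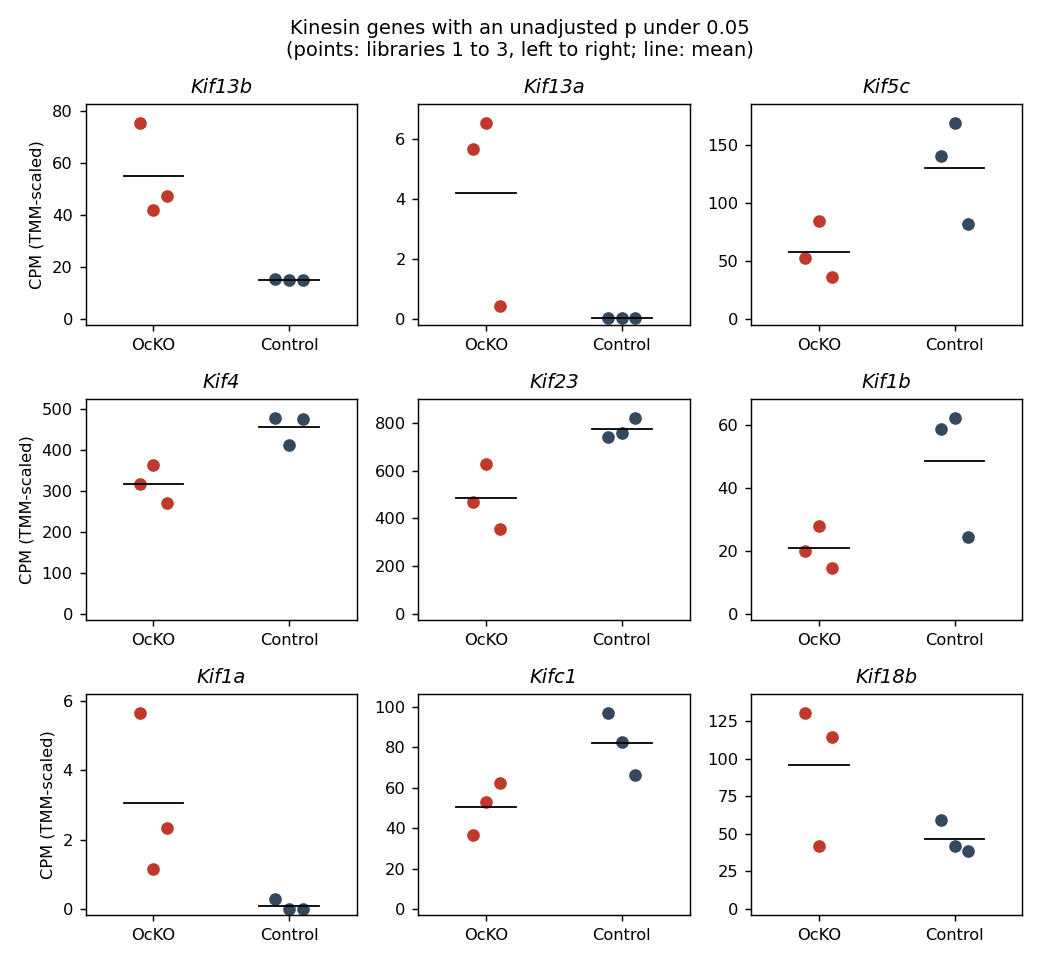
TMM-scaled CPM in each library of the 9 kinesins with an unadjusted edgeR p under 0.05, with OcKO points left of Control points and a line at each mean. Kif13b, Kif13a and Kif1a are higher in all 3 OcKO libraries, and Kif23, Kif4 and Kifc1 are lower in all 3, an order that Kif4 and Kifc1 do not keep on TPM.

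Several of the largest stores had estimates near 0. Kif17, the kinesin-2 homodimer known from dendrites and male germ cells, was at 427, 439 and 662 CPM in OcKO libraries and 443, 513 and 470 CPM in Control libraries. Only the third OcKO library stood apart, and the log2 fold change was 0.10 (95% interval -0.40 to 0.59). Kif22, the chromokinesin that pushes chromosome arms outwards, was at 482, 479 and 506 CPM in OcKO and 480, 430 and 426 CPM in Control (log2 fold change 0.14, 95% interval -0.21 to 0.48), and on TPM and on CPM scaled by library size alone it was higher in all 3 OcKO libraries. Kif3a, a subunit of heterotrimeric kinesin-2 needed for cilia, was at 72.9, 77.7 and 76.6 CPM in OcKO and 77.6, 64.5 and 84.2 CPM in Control (log2 fold change 0.0057, 95% interval -0.45 to 0.47). These intervals still allow changes of the size of their bounds.

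Kif2c, the centromeric depolymerase MCAK, was at 236, 307 and 306 CPM in OcKO and 397, 357 and 296 CPM in Control libraries (log2 fold change -0.31, 95% interval -0.76 to 0.14). Kif20a, which brings the chromosomal passenger complex to the midzone, was at 381, 258 and 270 CPM in OcKO and 199, 282 and 224 CPM in Control (log2 fold change 0.37, 95% interval -0.16 to 0.89). On the TPM scale and on CPM scaled by library size alone its OcKO libraries were all higher, and it shares 1259 exon bases on opposite strands with Cdc23. Kif20b, another cytokinesis motor, was at 122, 267 and 118 CPM in OcKO and 174, 173 and 185 CPM in Control (log2 fold change -0.069, 95% interval -0.84 to 0.70), with the second OcKO library above all others.

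Kifc3, Kif24, Kif14, Kif3b, Kif9, Kif2a and Kif21b, all stored, overlapped between genotypes on the TMM-scaled CPM. Kifc3, a minus-end motor of epithelial junctions and membranes, was at 130, 82.5 and 109 CPM in OcKO and 121, 80.2 and 68.3 CPM in Control. Kif24, a depolymerase that restrains cilium formation, was at 70.5, 68.7 and 65.7 CPM in OcKO and 64.5, 50.5 and 72.2 CPM in Control. Kif14, which works with citron kinase in cytokinesis, was at 51.0, 38.2 and 47.9 CPM in OcKO and 50.1, 39.6 and 43.0 CPM in Control. On the TPM scale and on CPM scaled by library size alone, Kif24 was higher in all 3 OcKO libraries.

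Kif3b, the partner of Kif3a, was at 36.0, 33.7 and 21.3 CPM in OcKO and 22.9, 15.4 and 25.1 CPM in Control, and on CPM scaled by library size alone it was higher in all 3 OcKO libraries. Kif9, a motor of motile cilia and sperm tails, was at 19.9, 32.2 and 34.1 CPM in OcKO and 16.4, 35.9 and 41.7 CPM in Control. Kif2a, a depolymerase of spindle poles, was at 17.2, 18.9 and 16.1 CPM in OcKO and 27.6, 25.8 and 18.5 CPM in Control, and shares 1229 exon bases on opposite strands with Dimt1. The log2 fold changes of these genes were 0.52 (SE 0.35) for Kif3b, -0.13 (SE 0.42) for Kif9 and -0.46 (SE 0.32) for Kif2a. Kif21b was at 38.8, 15.1 and 22.6 CPM in OcKO and 27.6, 18.0 and 23.0 CPM in Control.

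Several low kinesins varied from library to library. Kif21a was at 0.0228, 2.13 and 1.87 CPM in OcKO and 2.70, 8.44 and 4.52 CPM in Control, lower in all 3 OcKO libraries (log2 fold change -1.96, SE 1.34, edgeR adjusted p = 0.689). Kif15 was at 0.0457, 2.86 and 0.837 CPM in OcKO and 3.97, 3.59 and 3.08 CPM in Control, again lower in all 3. Kif21a and Kif15 each reached 10 counts in 2 OcKO libraries and in all 3 Control libraries. They could thus enter the test only with Control libraries, where they were higher. The low genes Kif3c, Kifc2, Kif26a and Kif26b ranged from 0 to 4.70 CPM in OcKO and from 0 to 6.72 CPM in Control, with overlap in each. Of the untested genes, Kif27 had 0, 110 and 9 counts in OcKO and 48, 0 and 1 in Control. Kif28, also untested, had 29, 46 and 0 in OcKO and 0 in all Controls. The summed Kif28 counts, scaled to library size, were 23.5 times what 3 counts over the Control group would give. That value takes the OcKO counts as exact, and the third OcKO library had 0 as the Controls did. Kif28 shares 69 exon bases on the same strand with Ahctf1. Kif19a, Kif12 and Kif7 were seen in 1 library, or in 1 library of each genotype for Kif7, with 34 counts at most.

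A motor needs adaptors, opposing motors and tracks, and 4 lists of such genes, 100 in all, were measured in the same fit. Of the 95 tested, 0 passed an adjusted p of 0.05 in edgeR, and limma voom called 0. At an unadjusted edgeR p under 0.05, 9 (9.47%) were higher and 8 (8.42%) lower in OcKO, where 5.93% of all tested genes were higher and 5.21% lower. On TMM-scaled CPM, 14 of the 95 were higher and 14 lower without overlap, where 10.7% of all tested genes were higher and 8.67% lower. The partner genes named below were picked by the smallest p, so their lack of overlap is no separate result. The median log2 fold changes were 0.18 for 10 cargo adaptors, 0.082 for 29 dynein and dynactin genes, -0.11 for 42 spindle assembly genes and -0.11 for 14 tubulins. DESeq2 called 6 of the 95 higher (6.32%, against 2.99% of all genes) and 2 lower (2.11%, against 1.71%). Spag9 is counted among these 6, among the 9 higher in edgeR and among the 14 higher without overlap. With 1 Control count over the group, it could enter the test only through its OcKO libraries.

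Among adaptors, Spag9 (JIP4), which links kinesin-1 and dynactin to vesicles, had 159, 154 and 305 counts in OcKO libraries and 0, 0 and 1 in Control libraries, a ratio of 581 with a 95% counting interval of 104 to 22989. Its edgeR log2 fold change was 8.60 (SE 1.45, adjusted p = 0.114). Klc1, a light chain of kinesin-1, was at 60.1, 33.3 and 49.4 CPM in OcKO and 24.3, 24.2 and 18.9 CPM in Control (log2 fold change 1.08, SE 0.31, edgeR adjusted p = 0.229). It thus stood higher in all 3 OcKO libraries while the heavy chain gene Kif5c had a negative estimate.

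On the dynein side, the dynactin actin-related gene Actr1b was at 46.2, 21.1 and 29.6 CPM in OcKO and 13.8, 7.62 and 11.8 CPM in Control (log2 fold change 1.54, SE 0.42, edgeR adjusted p = 0.206). Dync1i1, an intermediate chain of dynein, was at 10.4, 8.78 and 6.50 CPM in OcKO and 14.5, 30.9 and 30.7 CPM in Control (log2 fold change -1.57, SE 0.44, edgeR adjusted p = 0.217). Neither gene overlapped between genotypes, and they pointed opposite ways. Of the 29 genes in that list, 6 were higher and 4 lower without overlap, where 10.7% of all tested genes were higher and 8.67% lower.

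Of the spindle assembly genes, the microtubule end-binding gene Mapre3 was at 23.7, 13.1 and 30.4 CPM in OcKO and 4.03, 4.09 and 7.43 CPM in Control (log2 fold change 2.11, SE 0.50, edgeR adjusted p = 0.150). Haus4, a subunit of the augmin complex that branches new microtubules from old ones, was at 346, 246 and 329 CPM in OcKO and 170, 178 and 188 CPM in Control (log2 fold change 0.78, SE 0.19, edgeR adjusted p = 0.150). Both were among the 6 of 42 listed genes that were higher in OcKO without overlap, while 8 were lower. Of all tested genes, 10.7% were higher and 8.67% lower in that way. The tubulins with the smallest p were Tuba3b, at 28.8, 51.6 and 65.0 CPM in OcKO and 118, 66.3 and 73.1 CPM in Control, and Tubb2a, at 1072 ± 236 CPM in OcKO and 1580 ± 572 CPM in Control (SD, n = 3 each). With edgeR their adjusted p was 0.467 for Tuba3b and 0.549 for Tubb2a.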

How the data were processed

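The authors deposited raw counts per gene, not normalized, together with each gene's exon length. Trimmomatic 0.36, STAR 2.5.2b (build GRCm38) and featureCounts of Subread 1.5.2 made them, per the submitters' processing notes. The sources used here give no annotation release, strand setting or rule for reads with several matches, and such reads can shift values between overlapping or near-identical genes.

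All genes were fitted with edgeR 4.0.16 (R 4.3.3, quasi-likelihood test, TMM scaling, filterByExpr, 16060 genes left), with Benjamini-Hochberg adjustment over all of them and a threshold of 0.05. Each SE was derived from the test's F statistic. Tests were first run on simulated data. DESeq2 1.42.0 and limma 3.58.1 (voom) were alternatives. TPM was computed from the counts and exon lengths. One count was worth 0.0224 to 0.0276 CPM. Intervals from counts cover counting error only, since reads are not independent molecules, and the Kif28 value carries no interval.

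Named kinesins were the 8 with the smallest p, the 8 with the highest TPM and those without overlap at 5 CPM or more. From each partner list the 2 with the smallest p were named. The genes, lists and tests were chosen with earlier results of these data known.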

Additional observations from a re-analysis of the deposited data

How the results depend on the processing

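The count of kinesins called by edgeR was 0 in all 6 fits that left out 1 library each, under DESeq2 size factors, under scaling by library size alone, without a filter and with limma voom. It was 1 with a 5 CPM filter, under which 24 kinesins were tested, and 3 with DESeq2, and the partner lists had 8 calls with DESeq2 and 0 with edgeR. The number of kinesins under an unadjusted p of 0.05 ran from 3 to 9 over the fits without 1 library, against 9 with all. It was 3 without OcKO replicate 1, 4 without Control replicate 2 and 5 without Control replicate 3. The shares over all genes in these smaller fits are not given here, so these counts are not read as particular to kinesins. The median log2 fold change of the kinesins was 0.085 under library size alone, where that of all genes moved to 0.18, 0.036 without a filter and -0.0033 with the 5 CPM filter. It ran from -0.14 to 0.11 without 1 library. Under library size alone 5 kinesins were higher and 3 lower at an unadjusted p under 0.05, against 4 and 5 with TMM. Groups that did not overlap numbered 7 higher and 4 lower on CPM by library size and 6 higher and 3 lower on TPM, scales that were added after the data were seen.

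Same-numbered libraries did not deviate together (r = -0.037, -0.045 and -0.045), and differently numbered ones had r from 0.0135 to 0.0309. With 3 libraries per group, centred on their means, these values cannot settle whether the numbers pair the libraries. The fit with a replicate block called 0 kinesins, and 6 had an unadjusted p under 0.05, a count given without the share over all genes. With the replicate block Rpa1 was at -4.63 (adjusted p = 0.159). Without 1 library each Rpa1 ran from -4.78 to -4.33, with adjusted p from 0.0125 to 0.0959, above 0.05 without OcKO replicate 3 and without Control replicate 2 or 3.

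Kif13b ran from 1.54 to 2.04 without 1 library each (adjusted p 0.160 to 0.327) and Kif13a from 6.67 to 7.63 (0.207 to 0.329). Of the 23 genes named by rule, 3 near 0 changed sign in some fits. Kif20b was at 0.085 under library size alone, 0.12 without OcKO replicate 1 and 0.13 without OcKO replicate 3, and ran down to -0.53 without 1 library. Kif3a was at -0.0065 without a filter, -0.069 without Control replicate 2 and -0.0038 without OcKO replicate 3. Kif17 was at -0.14 without OcKO replicate 3 and ran up to 0.23. Outside the genes named by rule, Kif9 moved from -0.13 with TMM to 0.057 under library size alone. Kif26b moved from -0.16 to 0.029 in the same way. The cause was not tested for any of these. One count was worth 0.0224 to 0.0276 CPM, which sets the smallest level that could be seen.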
